A study of Mus musculus with 9 samples.

Results

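The comparison was between ATDC5 cells given acetate and ATDC5 control cells, described across all genes with a measurable transcript level. ATDC5 is an established mouse chondrogenic line, derived from a teratocarcinoma, used to follow cartilage formation in culture. Genes entered when the deposited values, taken out of the log2 scale, had a mean of at least 1 over the 3 control and 3 acetate libraries, which held for 12869 of 26202 genes in the table. The gene just inside this limit was Fam78a, with a mean of 1.0004, and the gene just outside was Inhbb, with 0.99999. The series asks whether acetate, to which ethanol is oxidised, could mediate effects of ethanol on gene expression and on differentiation of chondrocytes. Messenger RNA was sequenced with a stranded Illumina kit. All groups shared the same culture conditions: DMEM/F-12 with 5% serum and antibiotics, to which ascorbate (50 µg/mL), beta-glycerophosphate (10 mM) and insulin-transferrin-selenium (1X) were added during exposure. The control group is labelled only as control and the acetate group only as acetate, and the dose, the time of exposure and what the controls were given are not stated in the sources used here. A further 3 libraries of cells given ethanol entered the fit for the spread of each gene. Nothing in the labels says that the 3 libraries of a group came from separate cultures, and the p-values therefore refer only to library-to-library spread, which may be technical. All libraries came from 1 cell line.

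Chondrocytes build a matrix of collagen II fibrils, which carry collagens IX and XI, around a gel of aggrecan bound to hyaluronan. The transcription factors SOX9, SOX5 and SOX6 drive the genes of this matrix. Cells that mature further become hypertrophic, switch on collagen X and the hedgehog ligand IHH, and prepare the matrix for mineral. Acetate can be turned by acetyl-CoA synthetases into acetyl-CoA, the donor for histone acetylation and lipid synthesis.

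Levels below are TMM-scaled CPM, that is, reads per M reads after a scaling between libraries by the trimmed mean of M-values, and n = 3 libraries per group throughout. They are not divided by transcript length, so levels are compared between libraries and not between genes. Log2 fold changes are differences between the group means of log2 of the CPM value plus 1, acetate minus control, with their standard error (SE) from limma, and they understate the change of genes with low levels. A gene is called, and said to have risen or fallen, at a Benjamini-Hochberg adjusted p under 0.05 over all 12869 genes. Whether strand was used in counting is not given in the sources used here. The values of Acss2, Bmp6, Ccnd1, Col10a1, Col9a3, Cp, Hmga1, Matn4 and Tnnc2 are uncertain to that extent, since their exons overlap those of a protein-coding gene on the opposite strand in GENCODE M21. Those of Aars, Fgfr2 and Irgm2 are uncertain in either case. Their exons overlap Exosc6, Ctbp2 and Igtp on the same strand, by up to 1326, 210 and 162 bases. Libraries held 28.7 to 41.3 M recovered reads in control and 33.0 to 41.5 M in acetate, and 1 read was worth 0.0254 to 0.0348 CPM in these 6 libraries.

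Markers of chondrocytes and of osteoblasts were both present in the controls. The 7 chondrocyte markers summed to 12633, 9903 and 12936 CPM in control and to 5784, 5733 and 5132 in acetate. Most of this came from Col2a1, at 9738, 7570 and 9958 in control and 4413, 4719 and 3906 in acetate. All 7 were lower in each acetate library than in any control library. In bulk RNA, fewer cells of a type and less RNA per cell cannot be told apart. The 6 osteoblast markers summed to 17614 to 21206 CPM in control and 19154 to 20889 in acetate. Nearly all of it came from Col1a1, which other fibrous tissues also make, and from Ibsp. The level of Ibsp was 6646 to 7833 CPM in control and 4186 to 7225 in acetate. None of these 6 was called. Sp7 was at 288 to 337 CPM in control and 289 to 324 in acetate, and Dmp1 at 71.0 to 175 and 113 to 278. Bglap, at 12.02 to 18.7 CPM in control and 20.7 to 27.7 in acetate, was the only osteoblast marker without overlap between the groups. The 7 adipocyte markers summed to 74.8 to 77.8 CPM in control and 61.1 to 89.5 in acetate, and the 4 tendon markers to 40.6 to 48.8 and 47.1 to 57.3. The 7 muscle markers summed to at most 1.96 CPM in any of the 6 libraries, the 7 leukocyte and macrophage markers to at most 2.66, the 6 epithelial markers to at most 2.86, the 6 endothelial markers to at most 6.17, the 6 osteoclast markers to at most 0.867 and the 5 erythroid markers to at most 0.108. Myod1, Myog, Tyrobp, Cd3e, Snap25, Hbb-bs and Hbb-bt were at 0 in all 6.

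Acetate replicate 2 differed from all 5 others in a trend with base composition. Its difference from the control mean followed the GC content of the longest transcript (Pearson r = 0.77 over 12744 genes, a description over genes that are no replicates). The same correlation was -0.06 and 0.10 in the other acetate libraries and -0.17 to 0.13 in the controls. In acetate replicate 2, the 752 genes under 40% GC had a median difference of -1.50 on the log2 scale and the 2831 genes with 55% GC or more one of 0.47. In acetate replicates 1 and 3 the medians of these classes lay between -0.06 and 0.06. Values without acetate replicate 2 are given where they change a call or move a value by over 1.5 times, and its part in the results was not tested beyond that. Other libraries carried a trend with transcript length. The correlation with log2 of length was -0.33, -0.11 and 0.31 in control replicates 1, 2 and 3. It was -0.03, -0.16 and 0.26 in acetate replicates 1, 2 and 3, and the part of length in the results was not tested.

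**Figure D1:**
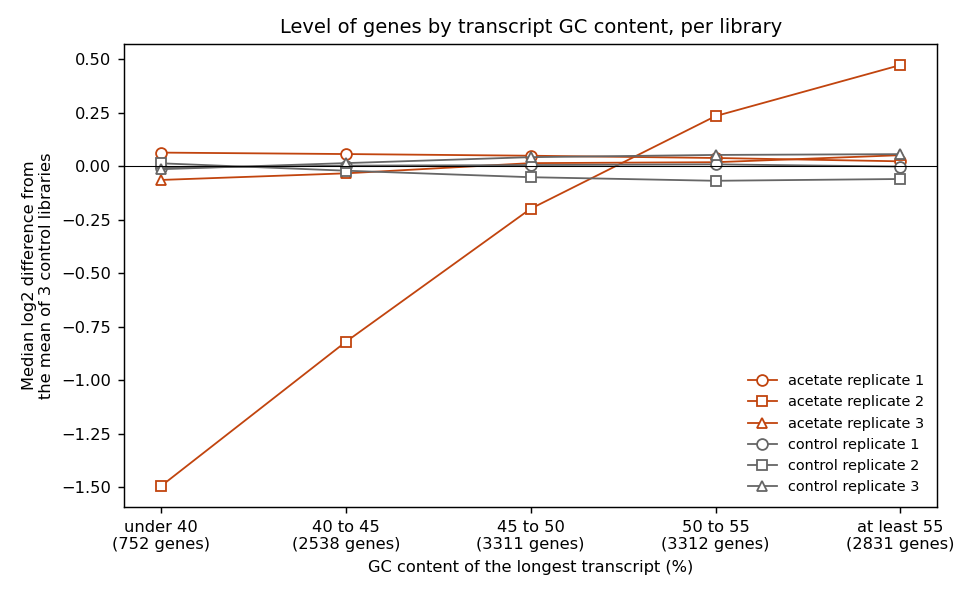
Median log2 difference from the mean of the 3 control libraries (y axis) for genes grouped by GC content of the longest transcript in percent (x axis, gene numbers below), with 1 line per library. Acetate replicate 2 climbs from -1.50 under 40% GC to 0.47 at 55% GC or more, while the other 5 lines stay near 0.

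Acetate moved few genes past the threshold, and 16 of the 65 that fell were genes of the cartilage matrix. Limma called 130 of 12869 genes (1.01%), of which 65 were higher (0.505%) and 65 lower (0.505%). The shares of 0.505% are the background for every list count below from this fit. Among them 18 rose and 36 fell by at least 2 times on the log2 scale of CPM plus 1. In all 130 the 3 acetate values lay outside the range of the 3 control values, as they did in 19.5% of all tested genes. The calls were made on these same values, so this separation is no further support for them. The median log2 fold change was 0.87 over the called rises, -1.06 over the called falls and -0.01 over all tested genes. At an unadjusted p under 0.05 there were 1889 genes.

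The number of calls changed with each library left out, and each such fit also had 1 library fewer to estimate the spread. Without acetate replicate 2 there were 449 calls, 251 higher and 198 lower, among them all 130. With the GC trend of every library taken out, 327 genes (2.54%) were called higher and 311 (2.42%) lower. Leaving out control replicate 3 gave 0 calls in limma (1728 genes at an unadjusted p under 0.05), control replicate 1 gave 3, control replicate 2 gave 28, acetate replicate 1 gave 188 and acetate replicate 3 gave 33. With ethanol replicate 1, 2 or 3 left out, 56, 54 and 59 genes were called. The even split between rises and falls changed as well, to 4 higher and 24 lower without control replicate 2 and to 3 higher and 17 lower in a fit of the 6 compared libraries only. With replicate number as a block there were 298 calls, 178 higher and 120 lower, and with the block in these 6 libraries 0. Every call named below was lost without control replicate 3, and all but 3 of the called genes named here were lost without control replicate 1. None of them changed sign in any alternative.

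**Figure D2:**
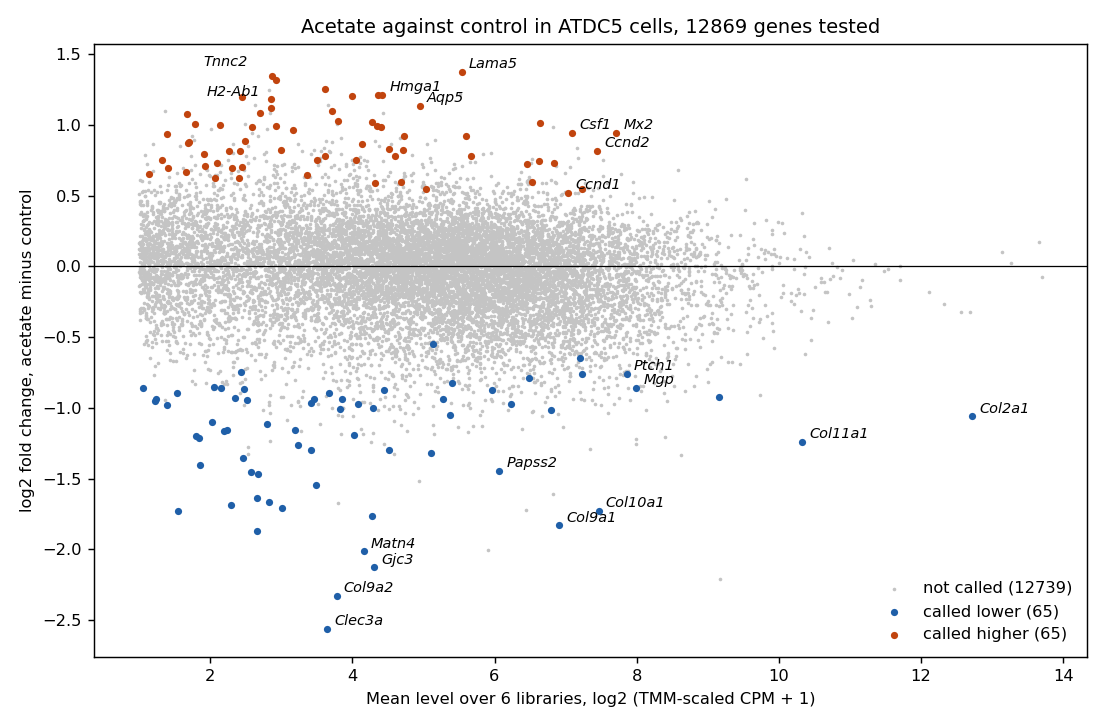
Each point is 1 of 12869 genes, with the mean level over the 6 libraries as log2 of CPM plus 1 on the x axis and the log2 fold change, acetate minus control, on the y axis. The 65 called falls (blue) reach -2.56 for Clec3a and include cartilage genes over the whole range of levels, while the 65 called rises (orange) end at 1.38 for Lama5.

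Genes of the cartilage matrix fell with acetate. Their list, like all lists here, was chosen with earlier results of these data known, so its counts are a description. Of 27 genes listed for this matrix, 23 were tested (Cilp, Cilp2, Prg4 and Mia were below the limit), 16 fell and none rose, where 0.505% of all tested genes fell. Their median log2 fold change was -1.06, against -0.01 for all tested genes, and 21 of 23 had all acetate values below all control values (8.14% of all tested genes did). The summed level of the listed genes was 15720, 12434 and 16364 CPM in control and 7252, 7039 and 6715 in acetate. Without acetate replicate 2, 19 fell (1.54% of all tested genes did), and the median was -1.12. The number of falls was 7 when acetate replicate 3 was left out (22 among all tested genes), 9 for control replicate 2 (24), 1 for control replicate 1 (3) and 0 for control replicate 3 (0).

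The deepest fall of all called genes was that of Clec3a, a C-type lectin made by cartilage (chromosome 8, 114418086 to 114425846 on GRCm38). Its level was 20.8, 17.6 and 22.3 in control and 3.68, 1.13 and 3.60 in acetate. The acetate libraries lay far under the controls, with replicate 2 lowest (log2 fold change -2.56 ± 0.29, adjusted p = 0.0075; -2.19 without acetate replicate 2). Matn4, which codes for the adaptor protein matrilin-4, stood at 29.8, 24.7 and 28.6 in control and 6.88, 6.17 and 5.28 in acetate, with the acetate libraries close together and no overlap (log2 fold change -2.01 ± 0.18, adjusted p = 0.0042). Snorc, a small proteoglycan of the chondrocyte surface, was at 9.95, 8.28 and 8.48 in control and 2.08, 1.83 and 1.27 in acetate (log2 fold change -1.87 ± 0.20, adjusted p = 0.0069). Ucma, a secreted Gla-rich protein of young chondrocytes, was at 12.97, 9.67 and 11.6 in control and 3.02, 2.85 and 2.47 in acetate (log2 fold change -1.71 ± 0.21, adjusted p = 0.012). In both genes every acetate library stayed below the lowest control.

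The collagens of the cartilage fibril fell together. Col2a1, the gene of the main fibril collagen, was at 9738, 7569.6 and 9958 in control and 4413, 4719 and 3906 in acetate, so that the highest acetate library lay below the lowest control (log2 fold change -1.06 ± 0.15, adjusted p = 0.017). The genes of collagen IX, which decorates the fibril surface, fell further. Col9a2 went from 24.8, 18.4 and 22.4 in control to 4.34, 2.79 and 3.58 in acetate (log2 fold change -2.33 ± 0.26, adjusted p = 0.0075). Col9a1 went from 215, 158 and 189 to 62.8, 43.5 and 49.97 (log2 fold change -1.83 ± 0.19, adjusted p = 0.0069), and Col9a3 from 10.1, 7.72 and 11.6 to 2.08, 2.09 and 3.06 (log2 fold change -1.66 ± 0.18, adjusted p = 0.0071). The differences exceeded the spread in each of the 3 genes. Collagen XI, which sets the width of the fibril, also fell in both of its cartilage chains, here picked after their values were seen. Col11a1 was at 1881, 1521 and 1957 in control and 909, 543 and 863 in acetate (log2 fold change -1.24 ± 0.21, adjusted p = 0.031), with acetate replicate 2 lowest. Col11a2 was at 743, 639.9 and 865 in control and 332, 443 and 411 in acetate (log2 fold change -0.92 ± 0.16, adjusted p = 0.035), with acetate replicate 2 highest.

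Further matrix genes, also picked after their values were seen, covered adaptors and small proteoglycans. Matn1, the gene of matrilin-1, was at 57.8, 53.8 and 52.6 in control and 27.5, 28.5 and 22.1 in acetate (log2 fold change -1.05 ± 0.17, adjusted p = 0.025). Comp, which codes for a pentameric adaptor of collagen fibrils, was at 107, 82.4 and 108 in control and 46.9, 53.6 and 48.7 in acetate (log2 fold change -0.97 ± 0.16, adjusted p = 0.031). Neither gene had overlapping groups. Epyc, a small leucine-rich proteoglycan gene of the growth plate, was at 4.22, 3.40 and 2.87 in control and 0.711, 0.175 and 0.217 in acetate (log2 fold change -1.73 ± 0.23, adjusted p = 0.016). Its log2 fold change was -1.10 after removal of the GC trend, where the call was lost (adjusted p = 0.15; 2.7e-31 to 0.15 over its alternatives). Ranges over alternatives, here and below, include the fit with the replicate block and without acetate replicate 2. That fit took the variance of all genes as equal at a given level, so its very small p-values do not reflect each gene's own spread. The gene Cnmd, which codes for the vessel-inhibiting chondromodulin, was at 5.22, 2.82 and 4.88 in control and 1.17, 0.815 and 0.921 in acetate (log2 fold change -1.40 ± 0.21, adjusted p = 0.022). Matn3 (-0.89 ± 0.15) and Cytl1, a secreted cytokine-like protein (-0.85 ± 0.12), completed the 16 falls.

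Both partners of the aggrecan aggregate missed the threshold although their groups did not overlap. Acan, the gene of aggrecan, was at 1169, 866 and 1324 in control and 604, 578 and 582 in acetate (log2 fold change -0.91 ± 0.18, adjusted p = 0.055), where the controls spread more widely than the acetate libraries. Hapln1, the gene of the link protein that fastens aggrecan to hyaluronan and also picked after its values were seen, was at 990.2, 850.4 and 922 in control and 359, 81.5 and 265 in acetate. Acetate replicate 2 lay far below the other acetate libraries there (log2 fold change -2.21 ± 0.44, adjusted p = 0.056). Without it the log2 fold change of Hapln1 was -1.57 and passed (adjusted p = 0.0014; 3.0e-85 to 0.25 over its alternatives). Acan passed there as well (adjusted p = 0.028; 2.2e-31 to 0.26 over its alternatives).

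**Figure D3:**
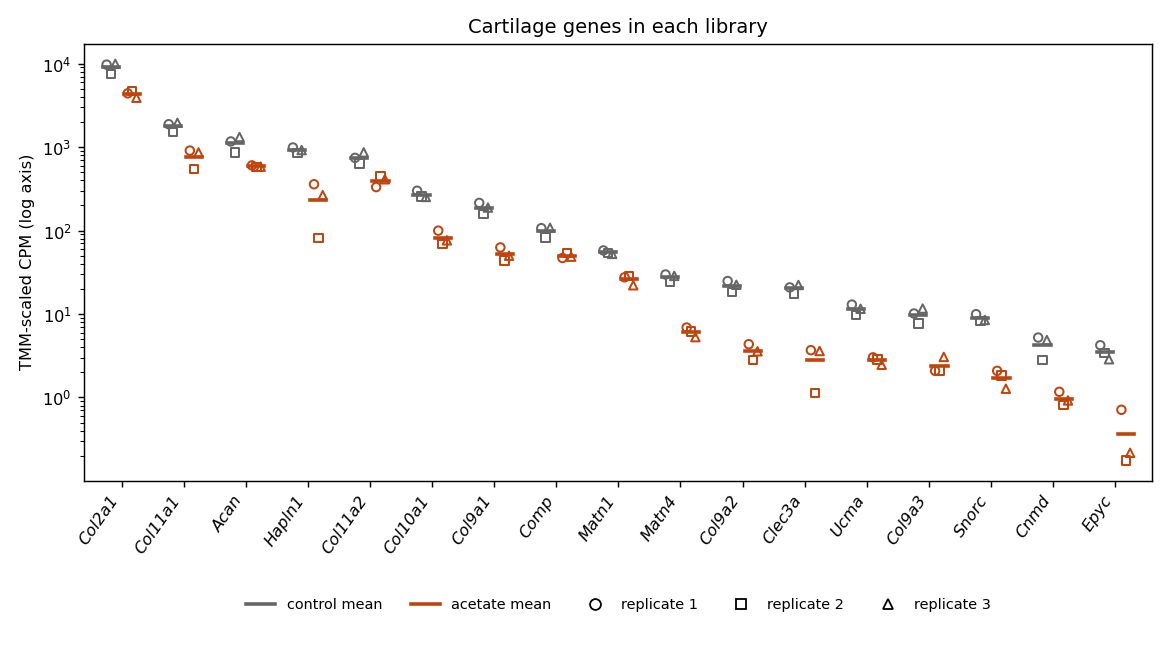
TMM-scaled CPM on a log axis (y axis) for 17 cartilage genes (x axis, ordered by level), with 3 control libraries (grey) and 3 acetate libraries (orange) as symbols by replicate number and the group mean as a bar. In all 17 genes the acetate libraries lie below the controls, and in Hapln1 and Clec3a acetate replicate 2 (square) lies apart from the other acetate libraries, at 81.5 and 1.13.

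The 250 bases before the transcription start are shown for 4 genes that fell and for Lama5, the largest rise, chosen after the values were seen because none of these windows overlaps an annotated exon and the bases after each start lie in a GENCODE transcript. The sequences are from RefSeq on GRCm38.p6, 5′ to 3′ on the strand of the gene. Capitals mark 2 kinds of motif searched on both strands: the GC box GGGCGG (or CCGCCC), a binding word of SP factors, and the SOX-type words ACAATG and ACAAAG (or CATTGT and CTTTGT). The windows are chr1:24177360-24177609 for Col9a1 (plus strand), chr4:130944135-130944384 for Matn1 (plus), chr1:74951673-74951922 for Ihh (minus), chr10:34389731-34389980 for Col10a1 (plus) and chr2:180225860-180226109 for Lama5 (minus).
Col9a1: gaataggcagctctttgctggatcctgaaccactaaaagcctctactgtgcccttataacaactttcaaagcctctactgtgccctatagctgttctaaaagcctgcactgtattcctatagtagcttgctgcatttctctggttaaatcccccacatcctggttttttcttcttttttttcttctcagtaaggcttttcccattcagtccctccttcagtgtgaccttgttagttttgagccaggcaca
Matn1: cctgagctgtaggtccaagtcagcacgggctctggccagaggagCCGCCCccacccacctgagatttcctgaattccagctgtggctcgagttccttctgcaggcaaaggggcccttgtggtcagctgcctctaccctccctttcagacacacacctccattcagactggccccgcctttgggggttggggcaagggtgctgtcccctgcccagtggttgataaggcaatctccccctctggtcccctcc
Ihh: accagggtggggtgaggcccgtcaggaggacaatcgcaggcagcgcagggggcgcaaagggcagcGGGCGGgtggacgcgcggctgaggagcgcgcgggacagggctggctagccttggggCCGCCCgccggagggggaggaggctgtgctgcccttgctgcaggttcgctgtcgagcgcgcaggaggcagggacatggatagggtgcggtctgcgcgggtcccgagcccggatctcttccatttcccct
Col10a1: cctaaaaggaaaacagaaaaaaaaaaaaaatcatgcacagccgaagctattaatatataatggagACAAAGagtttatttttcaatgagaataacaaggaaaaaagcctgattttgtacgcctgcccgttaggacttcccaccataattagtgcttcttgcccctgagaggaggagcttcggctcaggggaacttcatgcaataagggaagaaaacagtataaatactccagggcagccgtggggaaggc
Lama5: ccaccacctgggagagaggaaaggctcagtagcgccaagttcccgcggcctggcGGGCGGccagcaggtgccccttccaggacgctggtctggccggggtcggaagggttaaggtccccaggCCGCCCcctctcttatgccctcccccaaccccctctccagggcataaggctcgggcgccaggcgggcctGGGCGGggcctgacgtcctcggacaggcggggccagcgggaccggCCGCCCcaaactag
The windows of Lama5 and Ihh had 72.4% and 72% GC with 4 and 2 GC boxes, that of Matn1 62% with 1, and those of Col9a1 and Col10a1 43.6% and 41.6% with none. The Col10a1 window held 1 SOX-type word. A GC box was found in 58.3% of the 48 called falls with a RefSeq window, in 62.2% of the 45 called rises and in 64.5% of the 10228 tested genes that had one. A SOX-type word was found in 7 of the 48, in 9 of the 45 and in 20.1% of the 10228. A match is a run of letters and not a measured binding site.

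Among the regulators of chondrocyte fate, Sox8 and Sox5 fell and Sox9 did not pass the threshold. Of 16 tested regulators 2 fell and none rose, where 0.505% of all tested genes fell, and their median was -0.05. Of them 7 were positive and 9 negative, with 3 without overlap on the higher side and 7 on the lower. Among all tested genes 11.4% and 8.14% were so. Sox6 was tested and was not called. Sox8, a close relative of Sox9, was at 11.3, 10.7 and 13.003 in control and 4.73, 4.86 and 4.44 in acetate (log2 fold change -1.16 ± 0.14, adjusted p = 0.012). Sox5, which supports SOX9 at cartilage genes, was at 40.6, 39.6 and 42.01 in control and 27.7, 25.9 and 28.9 in acetate (log2 fold change -0.55 ± 0.10, adjusted p = 0.042). The acetate libraries lay below all controls in both genes. With the GC trend removed Sox5 had -0.38 and lost its call (adjusted p = 0.10; 7.2e-09 to 0.34 over its alternatives). Sox9 stood at 458, 403 and 486 in control and 316, 281 and 305 in acetate and missed the threshold (log2 fold change -0.57 ± 0.12, adjusted p = 0.065), with no overlap of the groups. Sox9 passed when acetate replicate 2 was left out (adjusted p = 0.027; 4.8e-12 to 0.32 over all its alternatives).

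Hypertrophic maturation and hedgehog signalling lost transcripts in part. Of 18 tested members, 5 fell and none rose (median -0.28), where 0.505% of all tested genes fell. The falls numbered 7 without acetate replicate 2 (1.54% of all tested genes), 1 without control replicate 1, control replicate 2 or acetate replicate 3, 0 without control replicate 3 and 2 to 3 without 1 of the ethanol libraries. There were 8 with the GC trend removed (2.42% of all tested genes) and 3 with pseudocount 0.1 or with voom. Col10a1, a collagen gene that marks hypertrophic cells (chromosome 10, 34389981 to 34397085), was at 300.05, 255 and 253 in control and 99.8, 68.7 and 76.4 in acetate (log2 fold change -1.72 ± 0.15, adjusted p = 0.0042), with all acetate libraries far under the controls. Ihh, the gene of the hedgehog ligand of the growth plate, was at 20.6, 19.5 and 24.1 in control and 10.1, 11.8 and 9.35 in acetate (log2 fold change -0.97 ± 0.13, adjusted p = 0.016). Ptch1, which codes for the hedgehog receptor and is itself switched on by the pathway, was picked after its values were seen. Its level was 298, 258 and 315 in control and 186, 148 and 179.8 in acetate (log2 fold change -0.76 ± 0.13, adjusted p = 0.036). Ligand and receptor thus were both lower in every acetate library than in any control.

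At low levels, Mmp13, the gene of the collagenase of late hypertrophic cells, was at 1.98, 2.30 and 1.93 in control and 0.965, 0.291 and 0.569 in acetate (log2 fold change -0.95 ± 0.16, adjusted p = 0.032), and Foxa3, a transcription factor gene of hypertrophy, at 2.25, 2.19 and 1.80 in control and 0.737, 0.611 and 0.488 in acetate (log2 fold change -0.94 ± 0.14, adjusted p = 0.021). The Mmp13 value was -0.61 with the GC trend removed, where its call was lost (adjusted p = 0.077; 4.9e-07 to 0.24 over its alternatives). Runx2, the master regulator of bone-forming cells, had overlapping groups at 341, 327 and 388 in control and 339.9, 277 and 339 in acetate (log2 fold change -0.15 ± 0.13, adjusted p = 0.54; -0.05 without acetate replicate 2).

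Mineralisation genes gave 1 call. Of 18 tested osteoblast and mineralisation genes only Mgp fell and none rose, and the median was -0.06. Mgp, which codes for matrix Gla protein, an inhibitor of calcification, was at 324, 313 and 344 in control and 169, 170.4 and 202 in acetate (log2 fold change -0.86 ± 0.12, adjusted p = 0.016). The groups stood well apart, and the value without acetate replicate 2 was -0.82. Alpl, the gene of the alkaline phosphatase that frees phosphate for mineral, was at 858, 742 and 856 in control and 854, 1046 and 789 in acetate, with acetate replicate 2 highest and overlapping groups (log2 fold change 0.12 ± 0.13, adjusted p = 0.61). The value was 0.0068 without acetate replicate 2, and the sign turned with the GC trend removed (-0.05).

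Enzymes that finish collagens and proteoglycans gave few calls, all but 1 of them falls. Of 30 tested collagen-modifying enzymes 2 fell and none rose (median -0.20, with 24 of 30 negative), where 0.505% of all tested genes fell. There were 7 falls without acetate replicate 2 (1.54% of all tested genes), 9 with the GC trend removed (2.42%), 1 without control replicate 2 or 1 of the ethanol libraries, and 0 without acetate replicate 3, control replicate 1 or control replicate 3. Colgalt2, a galactosyltransferase that glycosylates collagen, was at 55.5, 39.4 and 49.3 in control and 23.6, 16.1 and 16.7 in acetate (log2 fold change -1.32 ± 0.18, adjusted p = 0.016). P3h2, a collagen prolyl 3-hydroxylase, was at 205, 172 and 187 in control and 131, 99.6 and 103 in acetate (log2 fold change -0.76 ± 0.14, adjusted p = 0.037). In each the lowest control exceeded the highest acetate library.

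Of 36 tested genes for glycosaminoglycan synthesis and sulfation, 1 fell and 1 rose (median -0.07). Without acetate replicate 2, 6 fell and 1 rose (1.54% and 1.95% of all tested genes). Falls numbered 9 with the GC trend removed (2.42% of all tested genes) and 3 without acetate replicate 1 (91 of all 12869 tested genes). There were 0 falls without control replicate 1 or control replicate 3. Papss2, which makes the sulfate donor for chondroitin chains, was at 100.4, 78.9 and 110.1 in control and 42.02, 26.6 and 36.7 in acetate (log2 fold change -1.44 ± 0.19, adjusted p = 0.016). Chst13, a chondroitin 4-sulfotransferase, was at 1.13, 1.29 and 1.35 in control and 2.57, 5.12 and 3.22 in acetate (log2 fold change 1.005 ± 0.18, adjusted p = 0.039), with acetate replicate 2 highest. The 2 sulfation genes thus went in opposite directions, Chst13 from a level near the limit of 1 CPM.

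Fibrous matrix and basement membrane genes gave 1 call each. Of 30 tested fibrous matrix genes only Fbln1, which codes for fibulin-1, rose, at 7.86, 8.49 and 7.62 in control and 16.4, 23.5 and 13.4 in acetate (log2 fold change 1.03 ± 0.18, adjusted p = 0.039), and the median was -0.08. Of 21 tested basement membrane genes only Lama5 was called, and the median was 0.21. Without acetate replicate 2 the median was 0.06, and 3 rose and 2 fell (1.95% and 1.54% of all tested genes). Lama5, the gene of the laminin alpha-5 chain of basement membranes (chromosome 2, 180176373 to 180225859), was at 25.3, 25.9 and 22.1 in control and 59.9, 87.996 and 51.9 in acetate (log2 fold change 1.38 ± 0.18, adjusted p = 0.016). It was highest in acetate replicate 2 and was 1.16 without that library. Itgb4, the gene of an integrin chain that binds laminin, fell as the only call among 16 tested integrin genes, at 15.7, 14.5 and 16.3 in control and 8.16, 8.77 and 6.78 in acetate (log2 fold change -0.89 ± 0.12, adjusted p = 0.016). None of 34 tested matrix proteases and inhibitors was called. Timp3, the gene of a matrix-bound metalloprotease inhibitor, was at 1718, 1742 and 1489 in control and 1353, 939.6 and 1193 in acetate, without overlap (log2 fold change -0.52 ± 0.15, adjusted p = 0.15). It passed with the GC trend removed (-0.45, adjusted p = 0.038; 0.0024 to 0.47 over all its alternatives).

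Among genes outside the lists that fell most, Gjc3, a connexin gene known from myelinating glia, was at 30.7, 26.3 and 35.1 in control and 9.02, 3.20 and 7.91 in acetate (log2 fold change -2.13 ± 0.29, adjusted p = 0.016). Acetate replicate 2 was lowest, and the value without it was -1.74. Rtl3, a gene derived from a retrotransposon, was at 32.95, 23.5 and 29.9 in control and 9.58, 7.04 and 6.75 in acetate (log2 fold change -1.76 ± 0.25, adjusted p = 0.017). The 7 neural markers summed to 86.1 to 94.5 CPM in control and 79.6 to 108 in acetate, most of it Map2 and Tubb3, with Snap25 at 0. Their part in the fall of Gjc3 was not tested.

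The genes that rose most code for proteins of different families. Tnnc2, which codes for the troponin C of fast muscle, was at 3.41, 2.68 and 3.33 in control and 7.88, 10.7 and 9.999 in acetate (log2 fold change 1.34 ± 0.15, adjusted p = 0.0071), an increase in every acetate library. The 7 muscle markers summed to 0.917 to 1.96 CPM in control and 1.59 to 1.77 in acetate, with Myod1 and Myog at 0. H2-Ab1, a class II MHC chain of antigen-presenting cells, was at 3.30, 3.69 and 2.77 in control and 9.43, 13.5 and 6.77 in acetate (log2 fold change 1.32 ± 0.21, adjusted p = 0.027). The 7 leukocyte markers summed to 1.56 to 2.66 CPM in control and 1.90 to 2.33 in acetate, with Tyrobp and Cd3e at 0. Foxs1, a forkhead transcription factor gene, was at 5.58, 4.94 and 8.10 in control and 12.2, 18.97 and 17.4 in acetate (log2 fold change 1.26 ± 0.20, adjusted p = 0.025).

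Hmga1, which codes for an architectural chromatin protein, was at 11.6, 12.2 and 11.7 in control and 26.1, 30.6 and 29.8 in acetate (log2 fold change 1.21 ± 0.12, adjusted p = 0.0063). Its control values were nearly equal and its acetate values more than 2 times as high. Hmga1b was at 7.87, 8.28 and 9.41 in control and 18.3, 29.3 and 16.9 in acetate (log2 fold change 1.20 ± 0.21, adjusted p = 0.035), but 89.0% of the 50-base words of its transcripts also occur in Hmga1 transcripts, so that reads could be split between the 2 genes and the separate values are uncertain. These were the only calls among 10 HMG genes. Hmga2, its relative from the same family, had overlapping groups at 4.61, 5.64 and 7.71 in control and 7.25, 5.28 and 15.6 in acetate (log2 fold change 0.47 ± 0.36, adjusted p = 0.50; 0.77 without acetate replicate 2), with acetate replicate 3 highest.

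Crybb1, a lens crystallin gene, was at 3.41, 3.16 and 3.61 in control and 7.29, 11.7 and 8.40 in acetate (log2 fold change 1.18 ± 0.20, adjusted p = 0.031). Kif1a, a motor protein gene best known from neurons, was at 3.60, 3.16 and 3.81 in control and 7.67, 11.3 and 7.83 in acetate (log2 fold change 1.12 ± 0.18, adjusted p = 0.025). Aqp5, a water channel gene, was at 17.9, 20.2 and 15.7 in control and 34.3, 57.5 and 33.3 in acetate (log2 fold change 1.13 ± 0.22, adjusted p = 0.047) and was the only call among 18 tested solute transporters and aquaporins. In all 3 genes acetate replicate 2 was the highest library. Without it the values were 1.01, 0.95 and 0.88.

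**Figure D4:**
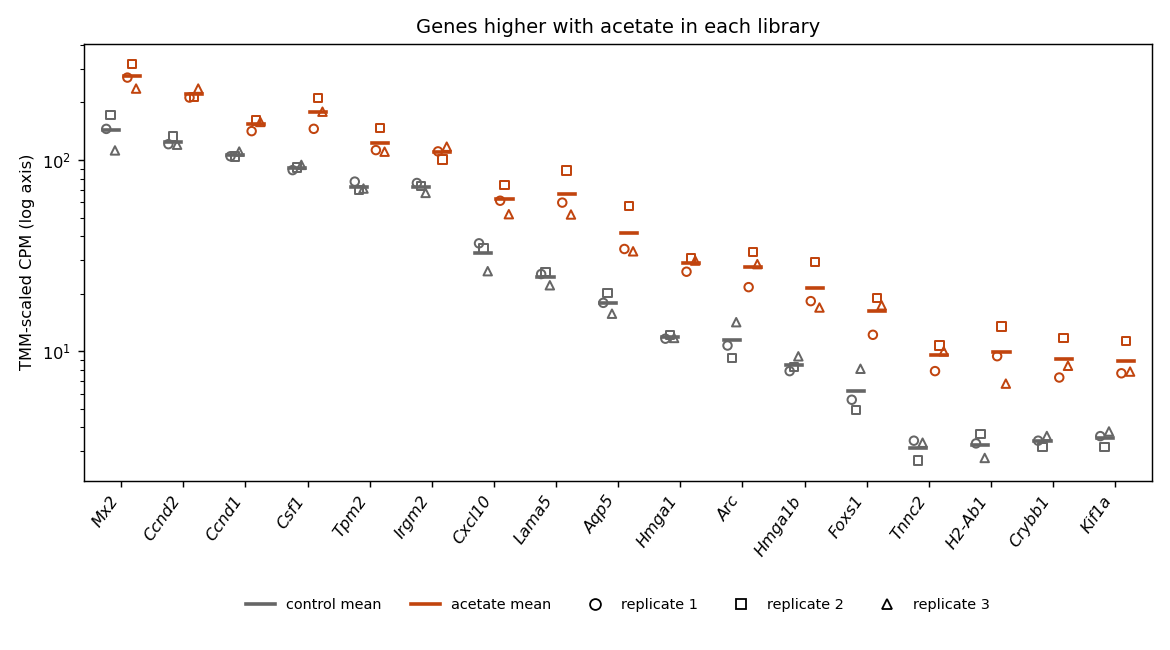
TMM-scaled CPM on a log axis (y axis) for 17 genes that were higher with acetate (x axis, only roughly from high to low level), with libraries as symbols by replicate number and group means as bars, control in grey and acetate in orange. The groups do not overlap in any of the 17, and acetate replicate 2 (square) is the highest acetate library in most of them, such as Lama5 at 87.996 and Aqp5 at 57.5.

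Inflammatory genes gave few calls, all of them rises. Of 25 tested chemokine, cytokine and NF-kB genes only Csf1 rose and none fell, while the median was 0.41, with 21 of 25 positive and 11 without overlap on the higher side (11.4% of all tested genes were so). Without acetate replicate 2, 9 rose and 1 fell, where 1.95% of all tested genes rose and 1.54% fell. With any control library or acetate replicate 3 left out, none rose. Csf1, the growth factor gene of macrophages and osteoclast precursors, was at 88.6, 91.2 and 94.3 in control and 146, 211 and 179 in acetate (log2 fold change 0.94 ± 0.14, adjusted p = 0.017). The controls lay within a narrow range, below every acetate library. Of 49 tested interferon response genes 3 rose and none fell (median 0.32, with 42 positive and 17 without overlap on the higher side, against 11.4% of all tested genes). Without acetate replicate 2, 7 rose (1.95% of all tested genes), and none rose with any other of the 9 libraries left out. With median-of-ratios scaling 1 rose, and none with the filter at a mean of 5 CPM.

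Mx2, an antiviral GTPase gene that is annotated as a polymorphic pseudogene, was at 146, 172 and 112 in control and 269.96, 319 and 236 in acetate (log2 fold change 0.95 ± 0.18, adjusted p = 0.047). Cxcl10, the gene of a chemokine induced by interferon, was at 36.7, 34.5 and 26.2 in control and 61.3, 74.03 and 52.1 in acetate (log2 fold change 0.92 ± 0.17, adjusted p = 0.043). Irgm2, an immunity-related GTPase gene, was at 75.9, 73.3 and 67.3 in control and 111, 101 and 118 in acetate (log2 fold change 0.60 ± 0.11, adjusted p = 0.041). The control and acetate libraries were separate in each.

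Genes induced by growth factors gave 1 call. Of 31 tested immediate early genes only Arc rose and none fell (median 0.33, with 27 positive and 14 without overlap on the higher side, against 11.4% of all tested genes). Without acetate replicate 1, 4 rose (97 of all 12869 tested genes did), and without acetate replicate 2, 4 rose (1.95% of all tested genes). Arc was lost, and none rose, without acetate replicate 3, any control library, ethanol replicate 1 or ethanol replicate 2, and with no filter. Arc, a gene switched on rapidly by growth factors and known from synapses, was at 10.7, 9.25 and 14.2 in control and 21.6, 32.96 and 28.6 in acetate (log2 fold change 1.21 ± 0.20, adjusted p = 0.031). None of 21 tested FGF and MAPK feedback genes was called, with a median of 0.39 and 10 without overlap on the higher side (11.4% of all tested genes were so). The members named by the rule for lists without a call were receptors. Fgfr1 was at 476, 480.3 and 568 in control and 594, 878 and 675 in acetate (log2 fold change 0.48 ± 0.16, adjusted p = 0.22). Fgfr3, the receptor that restrains growth plate chondrocytes, was at 252, 210.4 and 243 in control and 153, 170.3 and 131 in acetate and lower in every acetate library (log2 fold change -0.64 ± 0.15, adjusted p = 0.081). Fgfr2 was at 235, 214 and 266 in control and 229, 200.4 and 232 in acetate, with overlap (log2 fold change -0.11 ± 0.13, adjusted p = 0.63; -0.04 without acetate replicate 2). Fgfr1 and Fgfr3 differed in sign, and Fgfr3 passed without acetate replicate 2 (-0.73, adjusted p = 0.016) and with the GC trend removed (-0.81, adjusted p = 0.0060; 1.2e-23 to 0.37 over all its alternatives).

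Among other signalling lists, BMP genes gave 1 call and insulin and IGF genes gave 3. Of 24 tested BMP genes only Bmp6, a BMP ligand gene of the growth plate, fell, at 18.9, 16.1 and 18.4 in control and 10.2, 8.35 and 6.86 in acetate (log2 fold change -1.004 ± 0.15, adjusted p = 0.018). Of 20 tested insulin and IGF genes 2 rose and 1 fell. Grb10, an adaptor that dampens insulin and IGF receptors, fell, at 33.1, 27.96 and 32.6 in control and 16.4, 7.91 and 13.5 in acetate, with acetate replicate 2 lowest (log2 fold change -1.30 ± 0.25, adjusted p = 0.049). Igf2bp2, an RNA-binding protein gene, rose, at 18.1, 20.1 and 15.7 in control and 33.9, 33.9 and 29.5 in acetate (log2 fold change 0.82 ± 0.14, adjusted p = 0.034), as did Htra3, a secreted protease gene, at 10.1, 9.81 and 15.5 in control and 19.6, 27.3 and 27.6 in acetate (log2 fold change 1.02 ± 0.19, adjusted p = 0.046). Of 37 Wnt, 21 TGF-beta and 13 Notch genes tested none was called. Frzb, a secreted Wnt antagonist of cartilage, was at 379.9, 348 and 379.95 in control and 234, 127 and 204 in acetate, without overlap but not past the threshold (log2 fold change -1.01 ± 0.21, adjusted p = 0.059). It passed without acetate replicate 2 (-0.75, adjusted p = 0.0068) and with the GC trend removed (-1.06, adjusted p = 0.018; 7.3e-24 to 0.26 over all its alternatives).

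Of 21 tested contractile genes 2 rose and none fell (median 0.21, with 10 without overlap on the higher side, against 11.4% of all tested genes, of which 0.505% rose). Neither call held without acetate replicate 3, any control library or any ethanol library. Tpm2, a tropomyosin gene, was at 77.1, 69.5 and 70.96 in control and 113, 147 and 111 in acetate (log2 fold change 0.75 ± 0.13, adjusted p = 0.033), and Synpo2, an actin-bundling protein gene, at 2.06, 2.05 and 2.51 in control and 3.99, 4.28 and 4.71 in acetate (log2 fold change 0.73 ± 0.12, adjusted p = 0.027). Among 39 tested DNA replication genes only Ccnd1, the gene of cyclin D1, rose, at 105, 104 and 111 in control and 142, 161 and 158 in acetate (log2 fold change 0.52 ± 0.10, adjusted p = 0.047). Ccnd2, the gene of cyclin D2, which stands in no list and was picked after its values were seen, was at 121, 133 and 120.3 in control and 212, 213 and 237 in acetate (log2 fold change 0.82 ± 0.10, adjusted p = 0.012). Both cyclin genes were higher in every acetate library than in any control, and none of 38 tested mitosis genes was called.

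The routes by which cells handle acetate showed no call. None of 22 tested genes of acetate use and acetyl-CoA was called (median -0.09), and Acss1 was below the limit for testing. Acss2, the cytosolic acetyl-CoA synthetase gene, was at 32.4, 26.8 and 27.1 in control and 29.5, 28.2 and 17.7 in acetate, with acetate replicate 3 lowest (log2 fold change -0.22 ± 0.20, adjusted p = 0.56). Slc16a1, which codes for a carrier of acetate and lactate, was at 81.7, 76.99 and 81.3 in control and 84.1, 64.2 and 78.4 in acetate (log2 fold change -0.09 ± 0.12, adjusted p = 0.68; 0.02 without acetate replicate 2). The groups overlapped in both. Among 18 tested genes of ethanol and aldehyde oxidation only Aldh1a3, a retinaldehyde dehydrogenase gene, fell, at 5.72, 4.76 and 6.81 in control and 2.85, 2.85 and 3.33 in acetate (log2 fold change -0.75 ± 0.14, adjusted p = 0.046). Aldh2, the main acetaldehyde dehydrogenase gene, was at 244, 209 and 184 in control and 227, 315 and 165 in acetate (log2 fold change 0.11 ± 0.22, adjusted p = 0.78; -0.12 without acetate replicate 2), and Adh5 at 70.7, 61.7 and 62.04 in control and 71.1, 62.5 and 55.9 in acetate (log2 fold change -0.04 ± 0.13, adjusted p = 0.87), with overlap in both.

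None of the 19 lysine acetyltransferase, 18 deacetylase and sirtuin or 21 bromodomain genes tested was called, and their medians were -0.01, 0.15 and -0.02. Hdac5, a class II deacetylase gene, was at 104, 109 and 109 in control and 116, 171 and 120.3 in acetate without overlap (log2 fold change 0.31 ± 0.15, adjusted p = 0.36; 0.14 without acetate replicate 2). Likewise none was called of 25 cholesterol synthesis genes (median -0.06), 26 of fatty acid and lipid synthesis (0.01), 24 of glycolysis (0.02), 22 hypoxia targets (-0.26), 82 cytosolic ribosomal protein genes (-0.09), 74 of the respiratory chain (-0.04), 19 heat shock genes (0.02) and 30 antioxidant genes (0.09). Hmgcs1, an early enzyme of cholesterol synthesis, was at 669, 657 and 619 in control and 613, 362 and 488 in acetate (log2 fold change -0.44 ± 0.17, adjusted p = 0.28), and Scd1, a fatty acid desaturase, at 609, 548 and 608 in control and 536, 374 and 473 in acetate (log2 fold change -0.37 ± 0.14, adjusted p = 0.27), both without overlap. They had -0.24 and -0.22 without acetate replicate 2. Gapdh (689.7, 465 and 616 in control and 725, 826 and 521 in acetate) and Actb (1387, 1292 and 1319.7 in control and 1296, 1648 and 1270.2 in acetate), genes often used as a reference, overlapped between groups (0.22 ± 0.20 and 0.07 ± 0.13; 0.08 and -0.05 without acetate replicate 2).

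None of the stress lists gave a call. Of 32 tested ATF4 amino acid stress genes none was called, with a median of 0.33, 29 positive and 17 without overlap on the higher side (11.4% of all tested genes were so). Of them 2 rose without acetate replicate 2 (1.95% of all tested genes) and 11 with the GC trend removed (2.54%). Aars, the alanyl-tRNA synthetase gene, was at 429, 398 and 460.3 in control and 507, 743 and 550.3 in acetate, with acetate replicate 2 highest (log2 fold change 0.47 ± 0.15, adjusted p = 0.20). Its value was 0.30 without that library and 0.30 with the GC trend removed, where it passed (adjusted p = 0.039; 0.0044 to 0.53 over all its alternatives). Of 29 endoplasmic reticulum folding genes none was called, with a median of -0.19 and 11 without overlap on the lower side (8.14% of all tested genes were so). Hspa5, the gene of the chaperone BiP, was at 973, 967 and 914 in control and 910.2, 551 and 796 in acetate (log2 fold change -0.37 ± 0.17, adjusted p = 0.36) and Hsp90b1 at 1701, 1547 and 1402 in control and 1562, 590.1 and 1109 in acetate (log2 fold change -0.62 ± 0.29, adjusted p = 0.36). Acetate replicate 2 was the lowest library in both, and without it they had -0.16 and -0.23. Bnip3 (hypoxia targets, 482, 424 and 412 in control and 464, 157 and 297 in acetate) and Cp, the ceruloplasmin gene (complement and acute phase, 441, 448 and 476 in control and 359, 133 and 338 in acetate), were also lowest in acetate replicate 2, and neither was called (-0.65 ± 0.33 and -0.84 ± 0.32). Without that library Bnip3 had -0.24, and Cp had -0.38 and was called (adjusted p = 0.038; 0.021 with the GC trend removed, 8.5e-06 to 0.60 over all its alternatives). Vegfa, the gene of the vessel growth factor, was at 443, 406 and 556 in control and 535, 613 and 629 in acetate, with overlap (log2 fold change 0.35 ± 0.15, adjusted p = 0.34). Plxnb2, a semaphorin receptor gene, was at 421, 397 and 413 in control and 476, 632 and 438 in acetate (log2 fold change 0.31 ± 0.14, adjusted p = 0.35; 0.15 without acetate replicate 2), and none of 29 semaphorin and axon guidance, 18 circadian clock or 9 complement and acute phase genes was called.

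**Figure D5:**
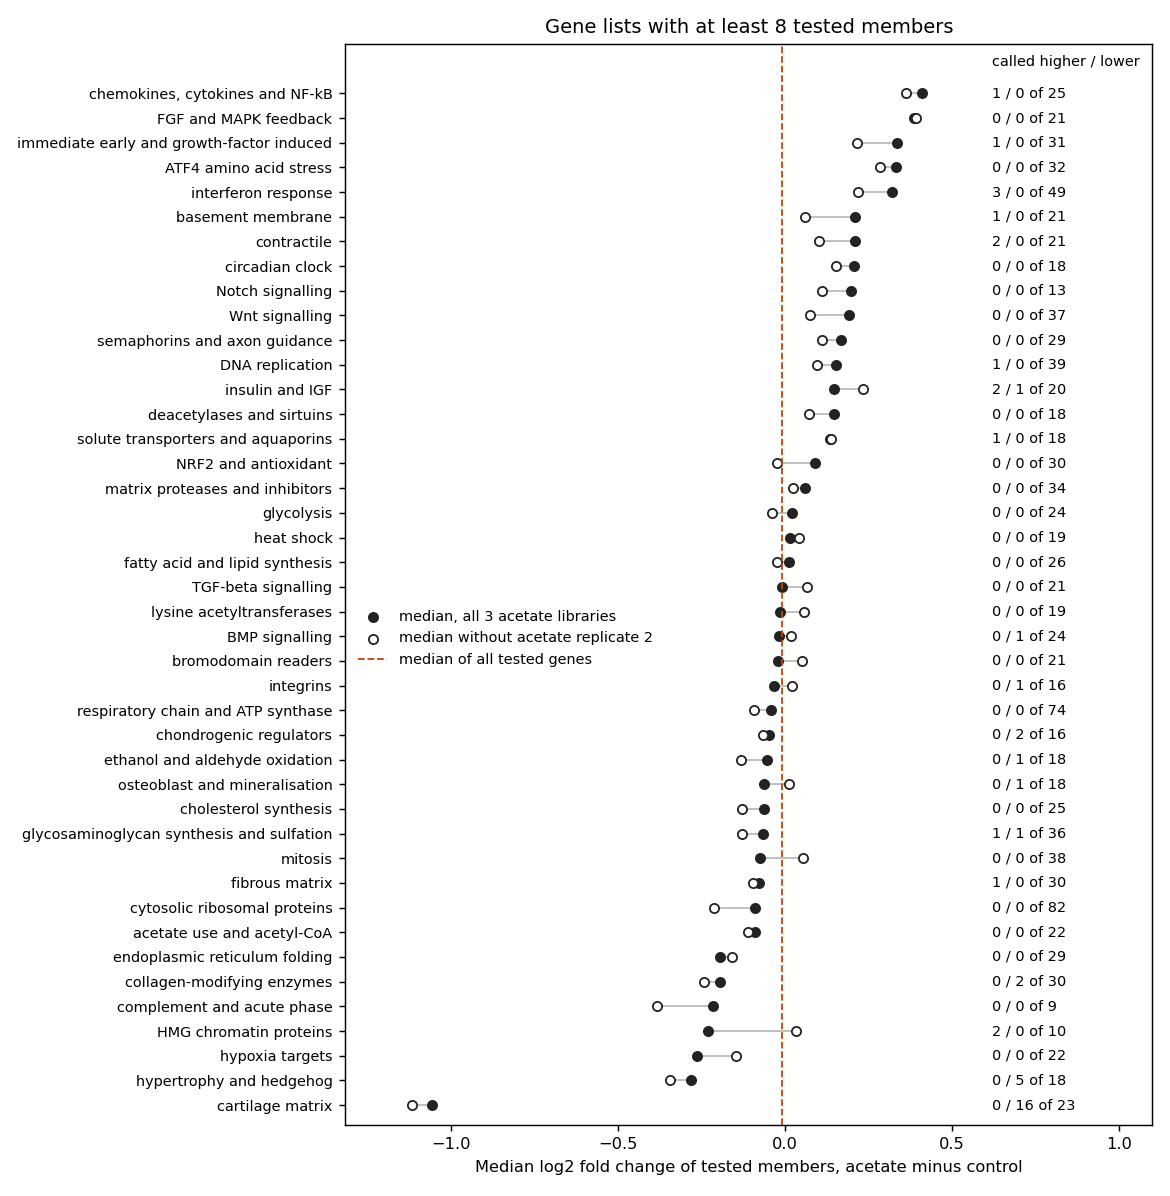
Median log2 fold change, acetate minus control (x axis), of the tested members of each list with at least 8 of them (y axis), with all libraries (filled) and without acetate replicate 2 (open), and the numbers called higher and lower at the right. The cartilage matrix lies at -1.06 and the filled points of the other lists between -0.28 and 0.41, around the median of all tested genes (dashed, -0.01).

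The summed level of the cartilage matrix genes was low with both acetate and ethanol, while several genes, some of them in this list, differed between the treatments. Both treatments were compared with the same 3 control libraries, so the 2 fold changes share them, and the direct contrast of acetate with ethanol, in which limma called 3.76% of all tested genes (3.83% for ethanol against control), is given as the test of the difference. With replicate number as a block 824 genes were called in it in place of 484. The summed level of the cartilage matrix genes was 7415, 5954 and 7257 CPM in ethanol, beside 7252, 7039 and 6715 in acetate. Col2a1 made up 4413, 4719 and 3906 CPM of the sum in acetate, so the sum says little about the other members. Col2a1 had -1.06 ± 0.15 with acetate and -1.18 ± 0.15 with ethanol (acetate minus ethanol 0.12 ± 0.15, adjusted p = 0.63). Col9a1 had -1.83 ± 0.19 and -1.36 ± 0.19 (difference -0.47 ± 0.19, adjusted p = 0.21, or 0.030 with the block), and Col10a1 had -1.72 ± 0.15 and -1.27 ± 0.15 (difference -0.46 ± 0.15, adjusted p = 0.14, or 0.038 with the GC trend removed). In the fit without the block and with no GC correction the differences in these 3 genes missed the threshold, which does not show that the treatments act alike. Mgp had -0.86 ± 0.12 with acetate and 0.07 ± 0.12 with ethanol, at 310.1, 367 and 355 CPM in the ethanol libraries (acetate minus ethanol -0.93 ± 0.12, adjusted p = 0.0050). Sox5 had -0.55 ± 0.10 and 0.03 ± 0.10 (difference -0.57 ± 0.10, adjusted p = 0.015, or 0.057 with the GC trend removed), and Sox8 had -1.16 ± 0.14 and -0.43 ± 0.14 (difference -0.73 ± 0.14, adjusted p = 0.024). These 3 genes were lower with acetate than with ethanol. Lama5 had 1.38 ± 0.18 with acetate and -0.79 ± 0.18 with ethanol, at 14.6, 13.7 and 12.9 CPM (difference 2.16 ± 0.18, adjusted p = 0.0011). Tnnc2 had 1.34 ± 0.15 and -0.91 ± 0.15 (difference 2.26 ± 0.15, adjusted p = 0.00050), and H2-Ab1 had 1.32 ± 0.21 and -0.82 ± 0.21 (difference 2.14 ± 0.21, adjusted p = 0.0015). The signs were opposite in these 3 genes. Matn1 had -1.05 ± 0.17 and -2.73 ± 0.17 (difference 1.68 ± 0.17, adjusted p = 0.0015), and Comp had -0.97 ± 0.16 and -1.88 ± 0.16 (difference 0.91 ± 0.16, adjusted p = 0.017), so that both were lower with ethanol. The genes that differed were picked after their values were seen.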

How the data were processed

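Messenger RNA of ATDC5 cells was sequenced in 3 control, 3 acetate and 3 ethanol libraries, grouped by the treatment in the labels. The authors deposited 1 table of log2 values, TMM-normalised counts per the file name. Per the submitters' processing notes, the tools were STAR 2.7.8a, Bowtie2 2.2.5 and Partek with mm10 as the build, their roles not given in the sources used here, nor the annotation and counting step. Taking the deposited log2 values out of the log scale gave TMM-scaled CPM. The floor of each library, left by an offset of 1e-05 read, was subtracted. Dividing by the worth of 1 read gave whole numbers, within 0.02, for 85.6% to 87.2% of low values (1 to 20 reads), and a count test was therefore not the main test.

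Limma 3.58.1 (R 4.3.3) was fitted to log2 of CPM plus 1 over all 9 libraries, with 1 mean per group and moderated variances with a mean trend. Benjamini-Hochberg adjustment ran over 12869 genes. The fit was tested on simulated data. GENCODE M21 on GRCm38, the build called mm10, gave positions, transcript length and GC content for 24919 genes matched by symbol and 423 by synonym, with 860 unmatched. Python 3.11.15 with pandas 2.3.3 and matplotlib 3.10.9 was used.

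Named genes were the 10 largest rises and falls among calls without overlap whose mean reached 5 CPM. Up to 4 called members of each list were added, or up to 3 of the highest level where none was called. Also named were Sox9, Col2a1, Acan, Col10a1, Runx2, Alpl, Acss1, Acss2, Slc16a1, Aldh2, Adh5, Hmga1, Hmga2, Gapdh and Actb, the 5 largest rises and falls called in 4 fits (as reported, without acetate replicate 2, GC trend removed, replicate block), and, for the GC check, the 2 genes of highest level in the lowest and highest GC class. The members, the 43 gene lists and the 11 marker lists were chosen with earlier results of these data known. The list of mitochondrially encoded genes had no tested member. Lists could share genes. Alternatives were another pseudocount, filter, scaling or set of libraries, a replicate block, voom, a GC correction and each library left out. The deviations of same-numbered acetate and ethanol libraries from their group means correlated at 0.15, 0.25 and 0.61 across genes, the numbers being from the labels. Ethanol replicate 1 correlated slightly better with acetate replicate 2 (0.18) than with acetate replicate 1 (0.15). The replicate block is given beside that contrast where it changes a call. A fit of the 6 compared libraries without acetate replicate 2, and the alternatives for acetate against ethanol, were added after the data were seen.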

Additional observations from a re-analysis of the deposited data

How the results depend on the processing

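All calls rest on 3 libraries per group, and the number called changed with each library left out. Without each of the 9 libraries in turn, limma called 0 to 449 genes, 0 to 251 higher and 0 to 198 lower, and 0 to 19 cartilage matrix genes fell. A fit of the 6 compared libraries only gave 20 calls, 3 higher and 17 lower, with 8 cartilage matrix falls. The same fit without acetate replicate 2 gave 98 falls. With the GC trend removed there were 638 calls, 327 higher and 311 lower, of which 126 were among the 130, and with a mean of at least 5 CPM there were 68, 28 higher and 40 lower, where 88 of the 130 were still tested. Median-of-ratios scaling, no filter, pseudocount 0.1 and voom gave 109 to 140 calls. The 119 calls with no filter held 75 of the 130. Of 68 called genes with a value here, 68 were kept without acetate replicate 2, 65 with the GC trend removed and 60 with pseudocount 0.1 and with voom. With no filter 49 were kept, and 16 in the fit of 6 libraries, 3 without control replicate 1 and 0 without control replicate 3. With a mean of at least 5 CPM, 54 of them were still tested and 45 were kept. None changed sign in any alternative.

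The deviations of same-numbered control and acetate libraries from their group means correlated at 0.24, -0.10 and 0.41 across genes. Control replicate 1 correlated at -0.47 with acetate replicate 3, and control replicate 3 at -0.36 with acetate replicate 1. The -0.10 was that of replicate 2, where the acetate library carries the GC trend. The deviations of same-numbered control and ethanol libraries correlated at 0.55, 0.36 and 0.67. The main fit did not use the numbers as pairs, and the block is given as an alternative. Control replicate 2 correlated best, among acetate libraries, with acetate replicate 1 (0.26). With a replicate block there were 298 calls, 178 higher and 120 lower, 129 of them shared. With the block and 6 libraries there were 0 (0 higher, 0 lower, 0 cartilage matrix falls; 1298 genes at an unadjusted p under 0.05). With the block and the GC trend removed there were 2247, 1126 higher and 1121 lower. With the block and without acetate replicate 2 there were 2776, 1576 higher and 1200 lower, in a fit whose prior for the variance took all genes as equal at a given level.

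Sign changes were seen only in genes that were not called, and their cause was not tested. With the GC trend removed, with or without the block, Alpl turned to -0.046, Slc16a1 to 0.18, Aldh2 to -0.028, Adh5 to 0.0083 and Actb to -0.00016. In the fit of 6 libraries without acetate replicate 2, Slc16a1 turned to 0.022, Aldh2 to -0.12 and Actb to -0.054. With the block and without that library, Alpl turned to -0.027, Slc16a1 to 0.013, Aldh2 to -0.087, Gapdh to -0.027 and Actb to -0.081. Without each library in turn, Acss2 ranged from -0.35 to 0.0081, Slc16a1 from -0.17 to 0.022, Aldh2 from -0.12 to 0.35, Adh5 from -0.13 to 0.042 and Actb from -0.054 to 0.13.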

Other observations

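The called genes below stand outside the lists and were picked after their values were seen. Among the falls, Meltf, which codes for the iron-binding melanotransferrin, was at 6.90, 5.63 and 6.96 in control and 1.75, 1.13 and 1.14 in acetate (log2 fold change -1.68 ± 0.15, adjusted p = 0.0042). Rflna, the gene of a filamin-binding protein, was at 9.56, 8.31 and 7.62 in control and 2.998, 2.12 and 1.27 in acetate (log2 fold change -1.63 ± 0.22, adjusted p = 0.016). Ncmap, a myelin protein gene of Schwann cells, was at 15.1, 11.6 and 15.8 in control and 4.88, 5.70 and 4.82 in acetate (log2 fold change -1.30 ± 0.15, adjusted p = 0.0092). No acetate library reached a control in these 3 genes. The matrix genes Col6a5, a collagen VI chain (-1.46 ± 0.20), and Ecm2 (-1.45 ± 0.23) fell as well. Ecm2 stood at 7.01, 8.69 and 7.14 in control and 3.07, 1.05 and 2.68 in acetate, with acetate replicate 2 lowest.

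Among the rises, Gadd45a was at 25.01, 25.7 and 26.3 in control and 36.7, 36.4 and 40.9 in acetate (log2 fold change 0.55 ± 0.10, adjusted p = 0.047) and Gadd45g at 63.3, 66.7 and 62.7 in control and 106, 178 and 118 in acetate (log2 fold change 1.01 ± 0.18, adjusted p = 0.034). Both belong to a family induced by stress and growth arrest, and in Gadd45g acetate replicate 2 was far above the other libraries. Sox11, a transcription factor gene, was at 1.70, 1.81 and 1.78 in control and 3.58, 3.55 and 4.28 in acetate (log2 fold change 0.79 ± 0.11, adjusted p = 0.016), and Hoxc10, a homeobox gene, at 2.80, 3.27 and 2.54 in control and 6.07, 6.46 and 4.99 in acetate (log2 fold change 0.82 ± 0.13, adjusted p = 0.023). Efna3, an ephrin gene, was at 3.30, 3.48 and 2.62 in control and 7.19, 9.89 and 6.39 in acetate (log2 fold change 1.08 ± 0.16, adjusted p = 0.017). Chrm4, which codes for a muscarinic acetylcholine receptor, was at 2.25, 2.23 and 2.39 in control and 6.25, 7.51 and 5.96 in acetate (log2 fold change 1.20 ± 0.12, adjusted p = 0.0069). Adgrg1, an adhesion receptor gene, was at 14.3, 12.8 and 12.1 in control and 25.2, 32.6 and 23.6 in acetate (log2 fold change 0.99 ± 0.14, adjusted p = 0.016), and Akap12, a scaffold gene of protein kinase A, at 15.99, 17.2 and 18.5 in control and 30.004, 41.02 and 30.5 in acetate (log2 fold change 0.92 ± 0.14, adjusted p = 0.020). In each of these genes the lowest acetate library exceeded the highest control.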
